A study of Mus musculus with 10 samples.

Results

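The genes described here make cholesterol or move it out of the cell, and 29 of the 36172 genes in the deposited expression table were chosen by symbol. They comprise 16 enzymes of cholesterol synthesis, 6 genes that regulate synthesis or carry sterol inside the cell, and 7 genes of cholesterol efflux, of the liver X receptors that control it and of cholesterol esterification. The table covers 10 RNA-sequencing libraries, 2 for each of 5 cell types, all derived from explants of the mouse left atrial appendage (C57BL/6, 8 to 12 weeks old), a small pouch on the upper left chamber of the heart. B cells were primary outgrowths after weak digestion (trypsin 0.05%, collagenase D 0.1%), sorted as c-kit+/CD45+, that is, carrying a receptor of stem and progenitor cells and the surface protein of white blood cells. C1, C2 and C3 were cultures of B-type cells at passage 6 (c-kit+/CD45-), passage 8 (c-kit-/CD45-) and passage 10 (c-kit-/CD45-). A cells were primary outgrowths after strong digestion (trypsin 0.25%, collagenase D 0.1%), sorted as c-kit+/CD45-. The design sets the primary types against each other and follows B-type cells over passages, and in B against A the digestion and the sort cannot be told apart. Likewise C1 differs from B in both passage and CD45, and C2 and C3 differ from C1 in both passage and c-kit. In those comparisons passage and label cannot be told apart either. Since nothing states that both libraries of a type are from different animals, p-values describe how far these samples scatter, and that scatter may be technical.

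Cholesterol is built from acetyl-CoA through mevalonate and squalene in the cytosol and the endoplasmic reticulum. When membranes hold little sterol, the escort protein Scap carries the SREBP transcription factors (genes Srebf1 and Srebf2) to the Golgi for activation, and they switch on the enzymes together, while the Insig proteins hold the complex back when sterol is plentiful. Oxidised sterols activate the liver X receptors (Nr1h2 and Nr1h3), which in macrophages raise the exporters Abca1 and Abcg1, the lipoprotein Apoe and Mylip, a ligase that destroys lipoprotein receptors. Macrophages take up lipoproteins and dead cells and depend on this export.

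Values are on a log2 scale and each gene's median over the 10 libraries has been taken away, so they compare libraries within a gene and give no order of level between genes. Differences written with ± are log2 differences, with the limma standard error after the sign (2 libraries in each type, and a spread shared by all 10). A rise or fall is a difference of at least 1 with a Benjamini-Hochberg adjusted p under 0.05 over all 14254 tested genes. All 29 members passed the filter on low values and were tested. Relative depth, read from the spacing of low values, ran from 0.437 in B replicate 1 to 5.03 in C3 replicate 2. The A libraries stood apart from each other: summed over 3 macrophage markers of known level, the B libraries held 23080 and 22160 normalized reads, no C library held more than 6.08, A replicate 1 held 15.1 and A replicate 2 held 378.2. Over 6 comparisons 46 differences of members passed, from 19 members, and 10 members passed in none. With 2 libraries a type, the libraries of 2 types often did not overlap, called or not. Of the 29 members that held for 22 in B against A, 24 in C1 against B and 21 in C1 against A. It held for 22 in C2 against C1, 17 in C3 against C2 and 16 in C3 against C1. The share over all tested genes was not counted.

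**Figure D1:**
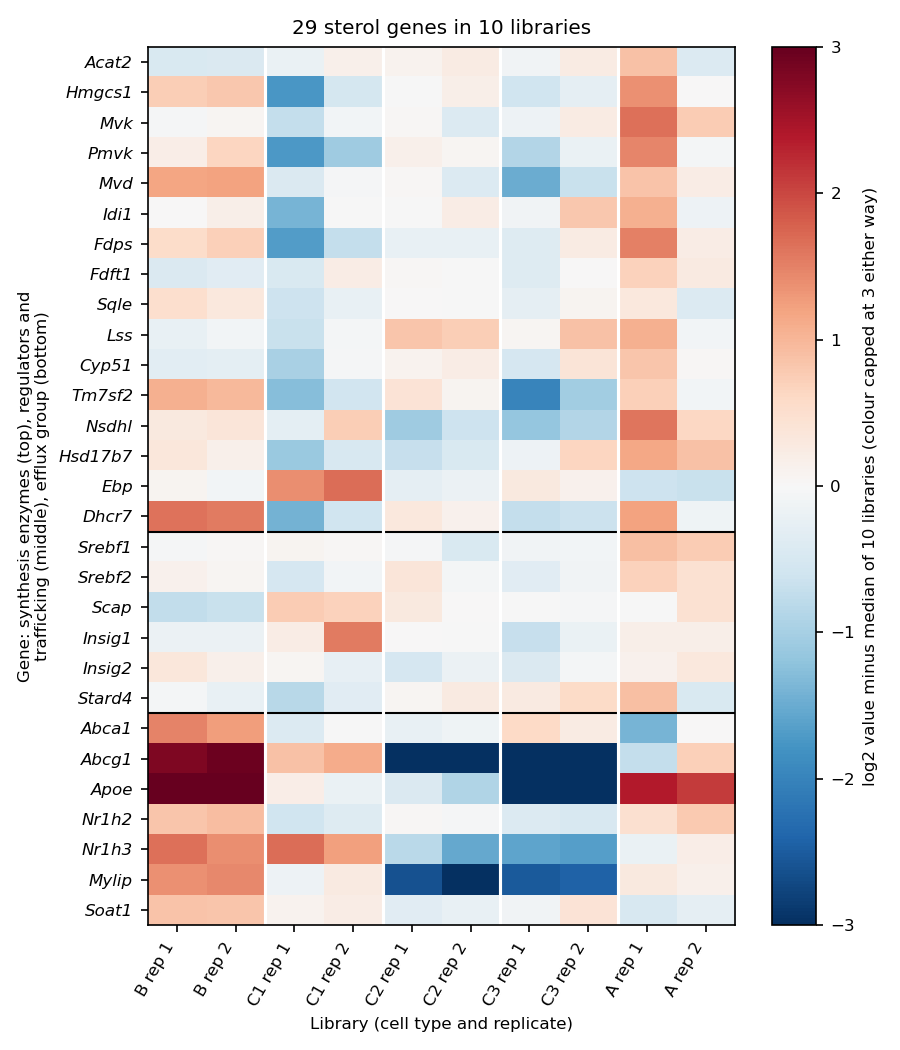
Centred log2 values of the 29 genes (rows) in the 10 libraries (columns), with red above and blue below each gene's median and colours capped at 3 in either direction. In the efflux group at the bottom Nr1h3 is alike in B and C1, and the other genes are reddest in B. Apoe, Abcg1, Nr1h3 and Mylip are bluest in C2 and C3, while Abca1, Nr1h2 and Soat1 are not. Most enzymes at the top are bluest in C1 replicate 1, and most are reddest in A replicate 1.

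Promoters are shown for the 5 genes below because 2 of them, Hmgcs1 and Mvd, fell and 1, Ebp, rose between B and C1, Mvk was called in both comparisons with A, and Abca1 holds a candidate receptor element. Of the 29 members 24 had a promoter in the RefSeq table (build GRCm38.p6), which spans 250 bases before to 50 after each start, and a gene with several starts was counted once. The stretches run 5′ to 3′ on the strand of the gene and end at the base before the start. Capitals mark matches on either strand to CCAAT (read ATTGG on the other strand), TCACNCCAC (the sterol regulatory element bound by SREBPs), the core of the spaced repeat bound by liver X receptors (a pair of GGTNA on 1 strand with 5 bases between them) and CACGTG (the E-box, which SREBPs also bind). Hmgcs1 is at chr13:119690201-119690350 on the plus strand, Mvk at chr5:114444169-114444268 on the plus strand, Mvd at chr8:122443423-122443522 on the minus strand, Ebp at chrX:8193513-8193612 on the minus strand and Abca1 at chr4:53159896-53160045 on the minus strand.
Hmgcs1: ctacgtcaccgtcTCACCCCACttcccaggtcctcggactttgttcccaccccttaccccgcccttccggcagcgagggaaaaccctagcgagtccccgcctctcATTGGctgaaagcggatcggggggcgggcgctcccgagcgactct
Mvk: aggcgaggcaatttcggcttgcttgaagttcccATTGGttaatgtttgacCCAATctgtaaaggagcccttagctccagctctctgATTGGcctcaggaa
Mvd: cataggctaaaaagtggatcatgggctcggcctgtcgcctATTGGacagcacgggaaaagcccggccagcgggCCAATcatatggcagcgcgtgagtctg
Ebp: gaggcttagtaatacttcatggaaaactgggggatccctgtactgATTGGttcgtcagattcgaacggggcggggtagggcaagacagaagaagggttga
Abca1: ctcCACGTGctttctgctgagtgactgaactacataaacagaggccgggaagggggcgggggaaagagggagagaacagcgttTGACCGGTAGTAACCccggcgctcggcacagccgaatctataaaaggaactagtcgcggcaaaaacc

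The CCAAT box, bound by the factor NF-Y that works beside SREBPs, was in the promoter of 12 of 13 synthesis enzymes with one (92.3%), of 4 of 5 regulators and of 2 of 6 efflux genes, against 43.1% of the 11045 tested genes with a promoter. The sterol regulatory element letters matched in Hmgcs1 alone among the members, against 1.46% of tested genes. The receptor core matched in Abca1 and in 1 of the promoters of Srebf1, against 0.579% of tested genes. The E-box was in 5 of 24 members (20.8%) against 11.4% of tested genes, and GGGCGG, the GC box, in 20 of 24 (83.3%) against 67.0%. A match is a description of the letters, and binding was not measured.

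Efflux genes were higher in B than in A, while few synthesis enzymes differed. Of the 7 efflux genes 6 rose in B and 1 did not pass, of the 16 enzymes 1 fell and 15 did not pass, and of the 6 regulators 0 passed in limma, with 2 at an unadjusted p under 0.05. That is 7 of 29 members (24.1%), against 26.9% of all tested genes, of which 14.5% were higher and 12.4% lower. On adjusted p alone 11 members passed, against 39.7% of all tested genes. The median difference was 1.52 over the efflux genes and -0.32 over the enzymes, beside 0.005 over all tested genes.

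Apoe, the lipoprotein that accepts exported cholesterol (chromosome 7, 19696109 to 19699188, build GRCm38), had centred log2 values of 5.25 and 5.33 in B and 2.39 and 2.10 in A. It was 8.26-fold higher in B (3.05 ± 0.22, limma adjusted p = 0.000134), and the libraries of the types did not overlap. Abcg1, which loads cholesterol onto high-density lipoprotein (chromosome 17, 31057675 to 31117988), is the one member whose level the table gives, and it had 231 and 251 normalized reads in B against 20.2 and 53.6 in A. The difference was 2.87 ± 0.48 (limma adjusted p = 0.00364). Abca1, which loads cholesterol onto lipid-poor apolipoprotein and whose promoter is printed above (chromosome 4, 53030787 to 53159895), had 1.49 and 1.24 in B and -1.41 and 0.01 in A, a rise of 2.06 ± 0.43 (limma adjusted p = 0.00864). The A libraries differed by more than the gap between B and the nearer A library.

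Nr1h3, the liver X receptor alpha of macrophages and liver (chromosome 2, 91184061 to 91202834), had 1.66 and 1.39 in B and -0.20 and 0.20 in A, and rose by 1.52 ± 0.28 (limma adjusted p = 0.00548). Nr1h2, the widely expressed liver X receptor beta (chromosome 7, 44549616 to 44553951), had 0.83 and 0.93 in B and 0.48 and 0.79 in A and did not pass (0.24 ± 0.16, limma adjusted p = 0.259). Mylip (chromosome 13, 45389742 to 45412022) had 1.38 and 1.45 in B against 0.29 and 0.14 in A, and rose by 1.20 ± 0.20 (limma adjusted p = 0.00393). Soat1, the enzyme that esterifies cholesterol for storage in droplets (chromosome 1, 156424525 to 156474331), had 0.87 and 0.83 in B against -0.47 and -0.28 in A, and rose by 1.22 ± 0.19 (limma adjusted p = 0.00269). Both B libraries lay above both A libraries in all 7 efflux genes, Nr1h2 included. The libraries of B and A also did not overlap, in either direction, in 11 of the 16 enzymes. The share over all tested genes was not counted.

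**Figure D2:**
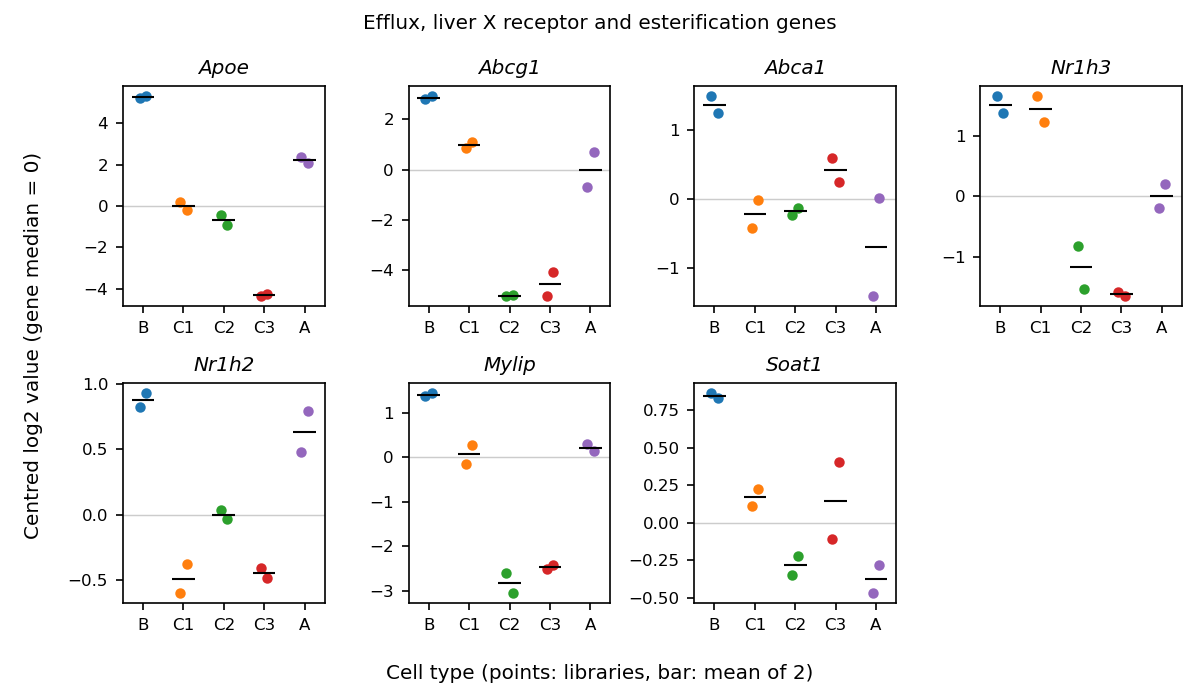
Centred log2 values (vertical axes, scales differ by gene) of the 7 efflux genes in the 5 cell types (horizontal axes), with 1 point per library and a bar at the mean of 2. Apoe, Abcg1, Abca1, Mylip and Soat1 are highest in B, Nr1h3 is alike in B and C1, and Abcg1, Nr1h3 and Mylip are low in C2 and C3.

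Among the enzymes Mvk, mevalonate kinase (chromosome 5, 114444269 to 114460591), had -0.03 and 0.06 in B against 1.65 and 0.76 in A, and fell by 1.19 ± 0.35 on the log2 scale (limma adjusted p = 0.0333). Its call ended in 6 of 16 other settings, among them without A replicate 1, where the difference was -0.75 (adjusted p = 0.123), and with the replicate number as a block (adjusted p = 0.0523). In the regulators Srebf1 (-0.84 ± 0.17, limma adjusted p = 0.00735) and Scap (-0.92 ± 0.19, limma adjusted p = 0.00769) passed on p but not on size. All 11 macrophage markers rose in B as well, with a median of 7.60, as did 2 of 3 epicardial markers and the endothelial marker Kdr, 1 of 5, and 7 of 10 fibroblast markers fell. Their part in these differences was not tested, and in bulk samples fewer cells of a type and less RNA per cell cannot be told apart. With B and A fitted alone Abca1 (adjusted p = 0.0885) and Abcg1 (adjusted p = 0.0501) were not called, Abca1 was not called without B replicate 1 (adjusted p = 0.0536), and its difference was 1.36 without A replicate 1. Quantile normalization ended the calls of Apoe (0.55, adjusted p = 0.261), Nr1h3 (adjusted p = 0.079) and Mylip (adjusted p = 0.0528) and brought Abcg1 to 1.76, and without A replicate 2 the members called were 11, of which 5 were lower in B.

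Between C1, the culture at passage 6, and B, genes of both synthesis and efflux were lower in C1. Of the 16 synthesis enzymes 7 fell, 1 rose and 8 did not pass. Of the 7 efflux genes 5 fell and 2 did not pass, and of the 6 regulators 1 rose. In all 14 of 29 members passed (48.3%), against 33.7% of all tested genes, of which 21.1% were lower and 12.6% higher. On adjusted p alone 16 members passed, against 51.5% of all tested genes. The enzymes' median difference was -0.81 and that of the efflux genes -1.37, beside -0.066 over all tested genes.

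The first step specific to the pathway is made by Hmgcs1, the cytosolic synthase of hydroxymethylglutaryl-CoA (chromosome 13, 119690379 to 119708260), with centred log2 values of -1.74 and -0.52 in C1 and 0.73 and 0.80 in B. Pmvk, phosphomevalonate kinase (chromosome 3, 89454541 to 89469013), had -1.71 and -1.07 in C1 and 0.21 and 0.65 in B. Mvd, which makes isopentenyl diphosphate (chromosome 8, 122433601 to 122443422), had -0.44 and -0.05 in C1 and 1.17 and 1.21 in B. In each of them both C1 libraries lay below both B libraries. The difference was -1.89 ± 0.52 for Hmgcs1 (limma adjusted p = 0.0197), -1.82 ± 0.51 for Pmvk (limma adjusted p = 0.0214) and -1.44 ± 0.34 for Mvd (limma adjusted p = 0.0118).

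Fdps, which makes farnesyl diphosphate, the last intermediate shared with other isoprenoids (chromosome 3, 89093588 to 89101959), had -1.69 and -0.72 in C1 and 0.55 and 0.71 in B, a fall of -1.83 ± 0.48 (limma adjusted p = 0.0167). Tm7sf2, a sterol reductase (chromosome 19, 6062821 to 6068373), had -1.27 and -0.56 in C1 and 1.06 and 0.97 in B, a fall of -1.93 ± 0.41 (limma adjusted p = 0.00699). Hsd17b7, a sterol ketoreductase (chromosome 1, 169949535 to 169969241), had -1.11 and -0.48 in C1 and 0.33 and 0.15 in B, a fall of -1.04 ± 0.31 (limma adjusted p = 0.0285). The called falls lay in both early and late steps of the pathway, with enzymes that gave no call between them.

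Dhcr7, the reductase of the final step (chromosome 7, 143823145 to 143848410), had -1.42 and -0.59 in C1 and 1.63 and 1.56 in B. It was 6.08-fold lower in C1 (-2.60 ± 0.44, limma adjusted p = 0.00267), the largest difference among the 16 enzymes in this comparison. Ebp, the sterol isomerase of an earlier late step (chromosome X, 8185329 to 8193512), went the other way, with 1.38 and 1.69 in C1 and 0.07 and -0.07 in B. Its rise was 1.54 ± 0.15 (limma adjusted p = 0.000300). Its promoter, printed above, holds a CCAAT box, as do those of Hmgcs1 and Mvd, which fell.

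The other 8 enzymes gave no call. Sqle, the squalene epoxidase, had -0.83 ± 0.27 (limma adjusted p = 0.0378), past the p but under the minimum size. Idi1, the isopentenyl isomerase, had -0.80 ± 0.57, Mvk -0.41 ± 0.35, Lss, which closes the sterol rings, -0.23 ± 0.43, Cyp51, the lanosterol demethylase, -0.19 ± 0.43 and Nsdhl, a sterol dehydrogenase, -0.11 ± 0.43. Acat2, the cytosolic thiolase that opens the pathway, had 0.42 ± 0.39 and Fdft1, the squalene synthase, 0.26 ± 0.26.

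**Figure D3:**
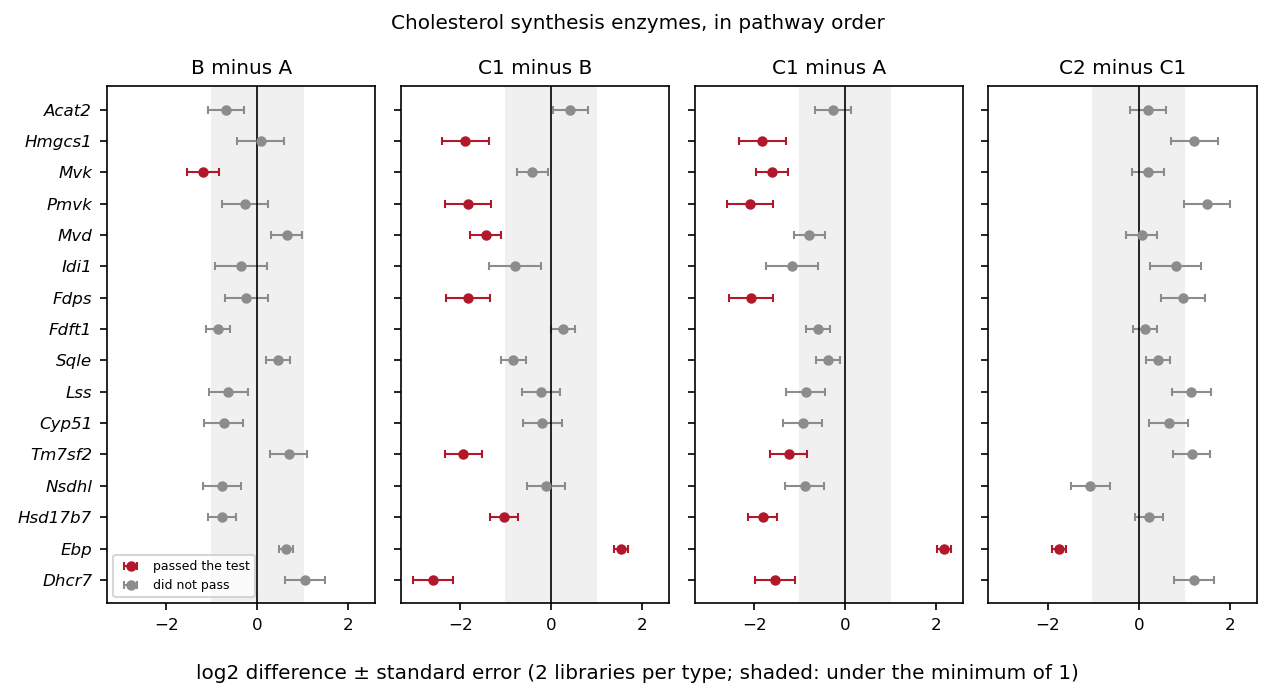
Log2 differences with standard errors (horizontal axes) of the 16 synthesis enzymes in pathway order (rows) in 4 comparisons, red where the gene passed the test and grey where it did not, with differences under 1 shaded. C1 lies below B and below A for 7 called enzymes each and above them for Ebp, which is the 1 enzyme called between C2 and C1.

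Among the regulators 1 gene passed. Scap (chromosome 9, 110333288 to 110384950) had 0.76 and 0.70 in C1 and -0.74 and -0.66 in B, and rose by 1.43 ± 0.19 (limma adjusted p = 0.000862). Srebf2, the main driver of the enzymes, had -0.50 and -0.09 in C1 and 0.12 and 0.07 in B and did not pass (-0.39 ± 0.21, limma adjusted p = 0.174). Insig1, itself a target of SREBPs, had 0.21 and 1.56 in C1 and -0.17 and -0.17 in B and did not pass (1.05 ± 0.40, limma adjusted p = 0.0633). Its C1 libraries differed by 1.34, and without C1 replicate 1 it was called at 1.72 (adjusted p = 0.00327). Srebf1 had 0.06 ± 0.17, Insig2 -0.34 ± 0.21 and Stard4, a carrier of cholesterol in the cytosol, -0.45 ± 0.42, and none of these 3 passed.

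In the efflux group Apoe had 0.19 and -0.19 in C1 against 5.25 and 5.33 in B and was 39.1-fold lower in C1 (-5.29 ± 0.22, limma adjusted p = 8.79e-06). Abcg1 stood at 60.5 and 71.4 normalized reads in C1 against 231 and 251 in B (-1.87 ± 0.48, limma adjusted p = 0.0157). Nr1h2 had -0.60 and -0.38 in C1 against 0.83 and 0.93 in B (-1.37 ± 0.16, limma adjusted p = 0.000513). Both C1 libraries lay below both B libraries in each of the 3 genes. Mylip fell by 1.35 ± 0.20 (limma adjusted p = 0.00166), with -0.14 and 0.27 in C1, and Abca1 by 1.58 ± 0.43 (limma adjusted p = 0.0192), with -0.42 and -0.01 in C1.

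Nr1h3 did not pass: it had 1.67 and 1.24 in C1 and 1.66 and 1.39 in B (-0.07 ± 0.28, limma adjusted p = 0.855), and the libraries of the types overlapped. Soat1 had 0.11 and 0.23 in C1 and fell short of the minimum size (-0.68 ± 0.19, limma adjusted p = 0.0221). All 11 macrophage markers fell in C1, with a median difference of -11.91, as did all 5 endothelial and all 4 proliferation markers. Of the fibroblast markers 4 of 10 fell and 1 rose, and 1 of 3 epicardial markers fell. The part of these markers was not tested. Of the 3 macrophage markers of known level between 0 and 2 were at the floor in a C1 library. Summed over the 5 endothelial markers, all of known level, the libraries held 5.00 and 5.02 normalized reads in C1, where between 3 and 5 of the markers were at the floor of 1 normalized read, and 313.7 and 339.1 in B.

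The calls of Hmgcs1, Pmvk, Mvd, Fdps, Hsd17b7, Abca1 and Abcg1 each ended without B replicate 1, again without B replicate 2 and again without C1 replicate 1, and the members called were then 7, 7 and 8 in place of 14. Those of Tm7sf2, Ebp, Dhcr7, Scap, Apoe and Nr1h2 held in all 16 settings, while quantile normalization brought Apoe to -2.67, Ebp to 2.60, Abcg1 to -0.11 and Mylip to -0.85, ended the calls of Hsd17b7 and Abca1, and gave Nr1h3 a rise of 1.44 (adjusted p = 0.0199).

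C1 was also set against A, which carried the same sorting labels, c-kit+/CD45-. A cells were primary outgrowths after strong digestion, while C1 was a passage 6 culture of B-type cells. Digestion, origin and passage thus cannot be told apart in this comparison. Again 7 of 16 enzymes were lower in C1, 1 was higher and 8 did not pass. Of the efflux genes 2 fell, 1 rose and 4 did not pass, and of the regulators 0 passed in limma, with 3 at an unadjusted p under 0.05. The 11 members called are 37.9% of 29, against 26.6% of all tested genes, of which 16.6% were lower and 10.1% higher. On adjusted p alone 13 members passed, against 43.5% of all tested genes. This comparison shares the C1 libraries with the one before. The median difference over the enzymes was -1.05, beside -0.038 over all tested genes.

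The largest falls were in Pmvk and Fdps, followed by Hmgcs1 and, at nearly the same size, Hsd17b7 of a later step. Fdps had -1.69 and -0.72 in C1 against 1.51 and 0.23 in A (-2.07 ± 0.48, limma adjusted p = 0.0128). Pmvk had -1.71 and -1.07 in C1 against 1.46 and -0.05 in A (-2.10 ± 0.51, limma adjusted p = 0.0150). Hmgcs1 had -1.74 and -0.52 in C1 against 1.38 and 0.00 in A (-1.82 ± 0.52, limma adjusted p = 0.0273). The groups did not overlap in Fdps, Pmvk and Hmgcs1, although A replicate 2 was much nearer to C1 than A replicate 1.

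Hsd17b7 had -1.11 and -0.48 in C1 against 1.15 and 0.88 in A (-1.81 ± 0.31, limma adjusted p = 0.00407), with A libraries close to each other. Mvk had -0.71 and -0.08 in C1 against 1.65 and 0.76 in A (-1.60 ± 0.35, limma adjusted p = 0.0105). Dhcr7 (-1.55 ± 0.44, limma adjusted p = 0.0273; 1.21 and -0.12 in A) and Tm7sf2 (-1.24 ± 0.41, limma adjusted p = 0.0455; 0.72 and -0.08 in A) were the other enzymes that fell. Ebp was higher in C1 than in A, which had -0.61 and -0.67, by 2.18 ± 0.15 (limma adjusted p = 0.000159).

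Apoe was 4.73-fold lower in C1 than in A (-2.24 ± 0.22, limma adjusted p = 0.000481) and Nr1h2 was lower by a difference of -1.13 ± 0.16 (limma adjusted p = 0.00183). Nr1h3 was higher in C1 by 1.45 ± 0.28 (limma adjusted p = 0.00666). Abcg1 had 60.5 and 71.4 normalized reads in C1 and 20.2 and 53.6 in A and did not pass (1.00 ± 0.48, limma adjusted p = 0.136). Of the macrophage markers 5 of 11 fell in C1, of the fibroblast markers 8 of 10, of the endothelial markers 4 of 5 and of the proliferation markers 4 of 4, with a median of -2.37, while 2 of 3 epicardial markers rose. Their part was not tested.

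Without C1 replicate 1 the members called were 6, and with C1 and A fitted alone 5, with the calls of Fdps, Pmvk, Hmgcs1, Dhcr7 and Tm7sf2 ended in both. Without A replicate 1 the differences were -1.34 for Pmvk, -1.13 for Hmgcs1 (adjusted p = 0.0934) and -0.88 for Dhcr7 (adjusted p = 0.0699), Tm7sf2 was not called in 10 of 16 settings, Mvk was not called in the 4 libraries alone (adjusted p = 0.0881) or without C1 replicate 1 (adjusted p = 0.0630), and Nr1h2 without A replicate 2 fell short of the minimum size (-0.97). Abcg1 was called higher in C1 without A replicate 2 (1.70, adjusted p = 0.0143) and under quantile normalization (1.64, adjusted p = 0.035), which also brought Ebp to 3.46 and Nr1h3 to 2.48.

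From passage 6 to passage 8 the efflux genes Abcg1, Mylip and Nr1h3 and the enzyme Ebp fell. In C2 against C1, 3 of 7 efflux genes fell, 1 of 16 enzymes fell and 0 of 6 regulators passed in limma, with 1 at an unadjusted p under 0.05. The 4 members called are 13.8% of 29, against 20.4% of all tested genes, of which 8.18% were lower and 12.2% higher. On adjusted p alone 7 members passed, against 35.3% of all tested genes. For Abcg1, C2 stood at the floor and at 1.04 normalized reads, both under the limit of 3 reads (6.11 and 3.11 normalized reads), against 60.5 and 71.4 normalized reads in C1 (limma adjusted p = 0.000320). Mylip had -2.61 and -3.06 in C2 against -0.14 and 0.27 in C1, a 7.46-fold fall (-2.90 ± 0.20, limma adjusted p = 0.000209). Nr1h3 had -0.82 and -1.54 in C2 against 1.67 and 1.24 in C1, a 6.19-fold fall (-2.63 ± 0.28, limma adjusted p = 0.000926).

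Apoe had -0.43 and -0.91 in C2, a difference of -0.67 ± 0.22 that missed the minimum size (limma adjusted p = 0.0495). Abca1 had -0.22 and -0.12 in C2 and -0.42 and -0.01 in C1 (0.04 ± 0.43, limma adjusted p = 0.969), so this exporter overlapped between the types in which Abcg1 did not. Nr1h2 had 0.49 ± 0.16 (limma adjusted p = 0.0484), under the minimum size, and Soat1 -0.45 ± 0.19 (limma adjusted p = 0.108).

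Ebp fell, with -0.28 and -0.18 in C2 against 1.38 and 1.69 in C1 (-1.77 ± 0.15, limma adjusted p = 0.000433). Of the other 15 enzymes 14 had a positive difference and 1, Nsdhl, a negative one (-1.07 ± 0.43, limma adjusted p = 0.0932), and none passed. The largest were Pmvk at 1.49 ± 0.51 (limma adjusted p = 0.0585), Dhcr7 at 1.22 ± 0.44 (limma adjusted p = 0.0695) and Hmgcs1 at 1.22 ± 0.52 (limma adjusted p = 0.110). The gap within A also enters the spread used here, and without either A library the differences stayed as they were while 5 enzymes, Hmgcs1, Pmvk, Lss, Tm7sf2 and Dhcr7, were called higher in C2. The 4 falls held in all 16 settings, and under quantile normalization Nr1h3 was at -4.05 and Ebp at -2.91. All 4 proliferation markers rose in C2, by a median of 2.75, 5 of 10 fibroblast markers rose and 1 fell, and 2 of 5 endothelial and 1 of 3 epicardial markers rose, while 0 of 11 macrophage markers passed in limma and 1 had an unadjusted p under 0.05. The part of these markers was not tested.

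From passage 8 to passage 10 Apoe and Tm7sf2 fell. In C3 against C2 2 of 29 members passed (6.90%), both lower, against 27.9% of all tested genes, of which 16.2% were lower and 11.6% higher. On adjusted p alone 2 passed as well, against 44.6% of all tested genes. Apoe had -4.37 and -4.26 in C3 against -0.43 and -0.91 in C2 and was 12.5-fold lower (-3.65 ± 0.22, limma adjusted p = 7.55e-05). Tm7sf2 had -1.98 and -1.05 in C3 against 0.42 and 0.08 in C2 (-1.76 ± 0.41, limma adjusted p = 0.0121), a call that ended without C2 replicate 1 (adjusted p = 0.0699, leaving 1 member called) or C3 replicate 1 (adjusted p = 0.0678).

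The efflux genes that had fallen in C2 gave no call here. Mylip had -2.51 and -2.42 in C3 (0.37 ± 0.20, limma adjusted p = 0.183), Nr1h3 -1.59 and -1.66 (-0.45 ± 0.28, limma adjusted p = 0.244) and Abcg1 stood at 1.00 and 1.99 normalized reads in C3, the deepest libraries, where the floor hides anything lower. Under quantile normalization both Mylip (1.73, adjusted p = 0.00161) and Abcg1 (2.55, adjusted p = 0.00713) were called higher in C3 than in C2, and the fall of Apoe was -1.93. Abca1, with 0.60 and 0.25 in C3, lay above both C2 libraries but did not pass (0.60 ± 0.43, limma adjusted p = 0.303). All 10 fibroblast markers fell in C3, 3 of 4 proliferation markers, 2 of 3 epicardial markers and 1 of 5 endothelial markers rose, and their part was not tested.

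Over the whole span from passage 6 to passage 10 more than 1 arm of the pathway held calls. In C3 against C1 4 of 7 efflux genes fell and 3 did not pass, of the enzymes 2 fell and 1 rose, and of the regulators 1 fell. The 8 members called are 27.6% of 29, against 34.8% of all tested genes, of which 17.7% were lower and 17.1% higher. On adjusted p alone 9 members passed, against 52.5% of all tested genes. Apoe was 19.9-fold lower in C3 (-4.32 ± 0.22, limma adjusted p = 1.90e-05), Nr1h3 8.44-fold lower (-3.08 ± 0.28, limma adjusted p = 0.000178) and Mylip 5.77-fold lower (-2.53 ± 0.20, limma adjusted p = 0.000105). Abcg1 had 1.00 and 1.99 normalized reads in C3 against 60.5 and 71.4 in C1 (limma adjusted p = 0.000140).

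Among the enzymes Ebp fell (-1.33 ± 0.15, limma adjusted p = 0.000484), with 0.30 and 0.12 in C3 against 1.38 and 1.69 in C1. Hsd17b7 rose (1.04 ± 0.31, limma adjusted p = 0.0272), with -0.15 and 0.65 in C3 against -1.11 and -0.48 in C1. Nsdhl (chromosome X, 72918557 to 72958514) fell (-1.23 ± 0.43, limma adjusted p = 0.0462), with -1.15 and -0.87 in C3 against -0.30 and 0.75 in C1, as did Insig1 (chromosome 5, 28071363 to 28078662; -1.33 ± 0.40, limma adjusted p = 0.0274), with -0.69 and -0.20 in C3 against 0.21 and 1.56 in C1. The last 3 calls ended in several settings: Nsdhl was called in 5 of 16 other settings, Insig1 in 11 and Hsd17b7 in 12. Without C1 replicate 2 the differences were -0.71 for Nsdhl and -0.66 for Insig1, without C1 replicate 1 that of Insig1 was -2.003, and without C3 replicate 2 that of Hsd17b7 was 0.64. Under quantile normalization Ebp was at -2.39. Of the markers all 4 of proliferation and 2 of 3 of the epicardium rose in C3, with medians of 4.34 and 5.13, as did the endothelial marker Kdr, 1 of 5. Of the fibroblast markers 6 of 10 fell and 1 rose, and Ttn, a sarcomere protein and the one cardiomyocyte marker of 3 tested that passed in any comparison, fell (-2.18 ± 0.39, limma adjusted p = 0.00337). Their part was not tested.

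The enzymes also moved as a block between libraries of the same type, which the comparisons of types do not show. In C1 all 16 enzymes were lower in replicate 1 than in replicate 2, by differences between -1.39 and -0.30 with a median of -0.66. In C3 15 of 16 were lower in replicate 1, with a median of -0.51, and in A all 16 were higher in replicate 1, by 0.06 to 1.51 with a median of 0.94. Over all tested genes 46.9% in C1, 50.5% in C3 and 49.4% in A were higher in replicate 1, with median gaps of 0.000, 0.003 and 0.000.

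In B 5 and in C2 9 of the 16 enzymes were higher in replicate 1, and the median gaps were -0.05 and 0.01. Ebp, which rose in C1 against B and against A where the other called enzymes fell, was in the same direction as them within C1 (1.38 in replicate 1, 1.69 in replicate 2) and within A (-0.61 and -0.67), and was the exception in C3 (0.30 and 0.12). Of the efflux genes 2 of 7 were higher in replicate 1 in C1, 3 in C3 and 2 in A. Of the 6 regulators 3 were higher in replicate 1 in C1, 1 in C3 and 4 in A. Insig1 and Stard4 were lower in C1 replicate 1, by differences of -1.34 and -0.49. In A replicate 1 Stard4 was higher by 1.37, while the gap was 0.002 for Insig1 and -0.47 for Scap. The median over the 16 enzymes was thus -0.84 and -0.08 in the C1 libraries and 1.07 and -0.02 in the A libraries.

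**Figure D4:**
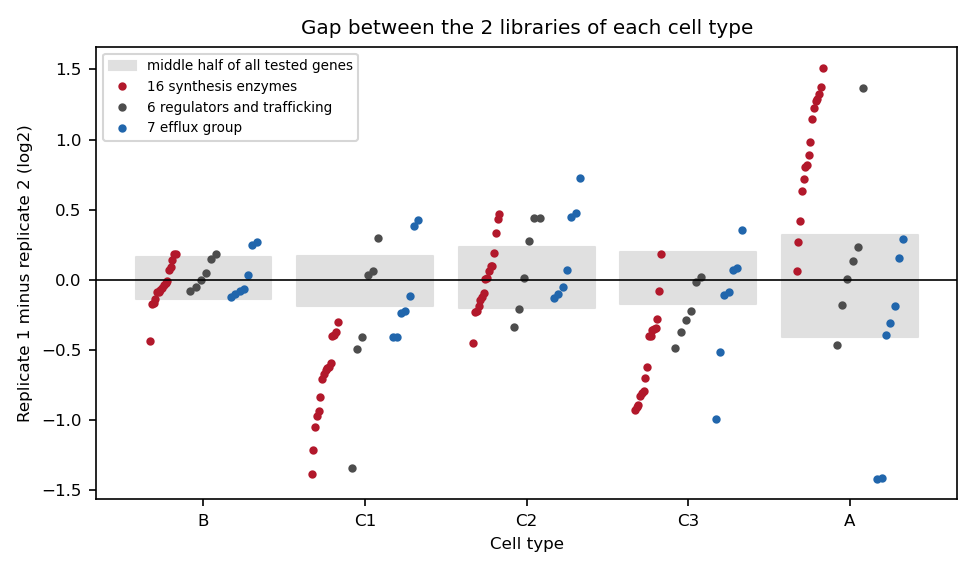
Log2 gap between replicate 1 and replicate 2 (vertical axis) within each cell type (horizontal axis), with 1 point per gene in red for the 16 enzymes, grey for the 6 regulators and blue for the 7 efflux genes, and a band from the lower to the upper quartile of all tested genes. All red points lie below 0 in C1 and above 0 in A, and 15 of 16 lie below 0 in C3.

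The called members had these centred log2 values in the types not yet given. Hmgcs1 had -0.00 and 0.18 in C2 and -0.60 and -0.26 in C3, and Pmvk 0.15 and 0.05 in C2 and -0.89 and -0.19 in C3. Fdps had -0.23 and -0.23 in C2 and -0.39 and 0.24 in C3. In these 3 enzymes, none of them called in C2 against C1, every C2 library lay above both C1 libraries. Of all 16 enzymes 11 did not overlap in that comparison, in either direction, and the share over all tested genes was not counted. Dhcr7 had 0.31 and 0.12 in C2 and -0.72 and -0.63 in C3. Mvd had 0.05 and -0.42 in C2, -1.50 and -0.66 in C3 and 0.86 and 0.22 in A, so C3 held its lowest libraries. Mvk had 0.03 and -0.41 in C2 and -0.15 and 0.25 in C3, below both A libraries. Hsd17b7 had -0.68 and -0.46 in C2, and Nsdhl 0.30 and 0.36 in B, -1.07 and -0.62 in C2 and 1.60 and 0.62 in A. Scap had 0.29 and 0.01 in C2, -0.01 and -0.03 in C3 and -0.01 and 0.45 in A, between its B and C1 libraries. Insig1 had 0.01 and -0.01 in C2 and 0.17 and 0.17 in A, Nr1h2 0.04 and -0.04 in C2 and -0.41 and -0.49 in C3, and Soat1 -0.35 and -0.22 in C2 and -0.11 and 0.40 in C3. Each of the B libraries was higher than every other library for Nr1h2 and for Soat1.

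The 10 members that passed in no comparison were Acat2, Idi1, Fdft1, Sqle, Lss, Cyp51, Srebf1, Srebf2, Insig2 and Stard4, whose range over the 10 libraries ran from 0.85 for Insig2 to 2.47 for Idi1. Among all members the range was largest for Apoe, at 9.70, and the median range was 2.41 for the enzymes, 1.43 for the regulators and 3.32 for the efflux genes. Of the 29 members 14 had their highest library in A, in each case A replicate 1, and 11 in B, and 14 had their lowest in C1, in each case C1 replicate 1. The same shares over all tested genes were not counted. Some exons are shared with other genes, and the kit does not mark strand, so reads there cannot be told apart: 18.3% of the exon bases of Fdft1 overlap Ctsb, a lysosomal protease gene on the opposite strand, 26.7% of those of Fdps overlap a gene model on its own strand, 12.1% of those of Tm7sf2 overlap Vps51, also on its own strand, and 13.2% of those of Scap and 12.1% of those of Hmgcs1 overlap transcripts on the opposite strand. Acat2 has a close paralog, Acat3, and the treatment of reads that match both is not stated.

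Counts in the accompanying lists below stand beside these shares of all tested genes called. They were 26.9% in B against A, 33.7% in C1 against B and 26.6% in C1 against A. In C2 against C1 the share was 20.4%, in C3 against C2 27.9% and in C3 against C1 34.8%. Fatty acid synthesis is driven mainly by the other SREBP gene, Srebf1. Of its 14 genes 0 rose and 7 fell in B against A, with a median of -0.96, most in Scd1, the stearoyl desaturase (-3.11 ± 0.45, limma adjusted p = 0.00201). In C1 against B 4 rose and 1 fell, with Scd1 at 1.62 ± 0.45 (limma adjusted p = 0.0211) and Mid1ip1, an activator of acetyl-CoA carboxylase, at -1.20 ± 0.36 (limma adjusted p = 0.0270). In C1 against A 4 fell, most in the elongase Elovl6 (-2.06 ± 0.32, limma adjusted p = 0.00268). In C2 against C1 1 rose, Elovl6 (1.44 ± 0.32, limma adjusted p = 0.0135), in C3 against C2 1 fell, the acetyl-CoA synthetase Acss2 (-1.47 ± 0.35, limma adjusted p = 0.0133), and in C3 against C1 Elovl6 rose (1.31 ± 0.32, limma adjusted p = 0.0115) and Acss2 fell (-1.31 ± 0.35, limma adjusted p = 0.0169).

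Other targets and partners of the liver X receptors, 12 genes of which 11 were tested, gave 6 rises and 0 falls in B against A, led by Smpdl3a, a phosphodiesterase (4.36 ± 0.19, limma adjusted p = 1.72e-05). In C1 against B 4 fell, most in Apoc2, the activator of lipoprotein lipase, which stood at the floor in both C1 libraries and at 45.8 and 48.8 normalized reads in B. In C1 against A 4 rose, led by the sterol hydroxylase Cyp27a1 (3.04 ± 0.51, limma adjusted p = 0.00363), and 2 fell, led by Ch25h, which makes an oxysterol (-3.64 ± 0.31, limma adjusted p = 0.000303). In C2 against C1 3 fell, led by Smpdl3a (-1.91 ± 0.19, limma adjusted p = 0.000636), in C3 against C2 5 fell, led by lipoprotein lipase, Lpl (-5.30 ± 0.33, limma adjusted p = 8.42e-05), and in C3 against C1 7 fell, led by Smpdl3a (-5.88 ± 0.19, limma adjusted p = 3.94e-06).

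Of 12 genes of sterol uptake and transport 3 rose and 1 fell in B against A, led by the cholesteryl ester hydrolase Nceh1 (4.65 ± 0.31, limma adjusted p = 0.000110) and the caveolar protein Cav1 (-1.27 ± 0.41, limma adjusted p = 0.0454). In C1 against B 6 fell, led by Nceh1 (-4.13 ± 0.31, limma adjusted p = 9.04e-05). In C1 against A 1 rose, Npc2, the sterol carrier of the lysosome (1.24 ± 0.16, limma adjusted p = 0.00136), and 3 fell, led by the lipoprotein receptor Vldlr (-2.07 ± 0.42, limma adjusted p = 0.00739). In C2 against C1 2 rose, led by Vldlr (2.34 ± 0.42, limma adjusted p = 0.00605), and 1 fell, Npc2 (-1.32 ± 0.16, limma adjusted p = 0.00136). In C3 against C2 2 rose, led by Cav1 (1.99 ± 0.41, limma adjusted p = 0.00769), and 1 fell, Vldlr (-1.86 ± 0.42, limma adjusted p = 0.0107), and in C3 against C1 3 rose, led by Cav1 (3.17 ± 0.41, limma adjusted p = 0.000773), and 2 fell, led by Npc2 (-1.56 ± 0.16, limma adjusted p = 0.000265).

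The machinery that processes SREBPs and senses sterol held at most 1 call in every comparison but C3 against C1. Of its 7 genes 0 passed in limma in C1 against B, C2 against C1 and C3 against C2, where 2, 1 and 5 had an unadjusted p under 0.05. In B against A and in C1 against A 1 gene fell each, and in C3 against C1 2 rose and 1 fell. The 1 that fell in C3 against C1 was the protease Mbtps1, which makes the first cut in SREBPs (-1.03 ± 0.17, limma adjusted p = 0.00245). Of 8 genes of the other branch of the mevalonate pathway 0 passed in limma in B against A, where 2 had an unadjusted p under 0.05. Ggps1, which makes geranylgeranyl diphosphate, rose in C1 against B (1.05 ± 0.14, limma adjusted p = 0.000941), as the farnesyl synthase Fdps fell, and fell in C2 against C1 (-1.01 ± 0.14, limma adjusted p = 0.00229). Icmt, a methyltransferase of prenylated proteins, fell in C1 against A (-1.14 ± 0.16, limma adjusted p = 0.00173), 2 genes rose in C3 against C2 and 1 in C3 against C1, led by Pdss1, which makes the tail of coenzyme Q (2.13 ± 0.30, limma adjusted p = 0.00171, and 2.86 ± 0.30, limma adjusted p = 0.000310).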

How the data were processed

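Total RNA of 10 libraries, made with an Illumina TruSeq kit that does not mark strand, per the labels' protocols, was sequenced. Per the submitters' processing notes, TopHat, DESeq and mm10 are listed without role or version; counter and annotation: not given in the sources used here. Values were deposited by the authors on a log2 scale. Their making is not stated; they were read as log2 normalized reads, raised to at least 1 (the floor), minus the gene's median over the 10 libraries, which was 0 within 1e-05 in 17821 of 17821 genes with values. Of 36172 genes 17 held a cell that is not a number and 18334 were 0 throughout.

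A level is known where at least 2 libraries share a gene's lowest value (4762 genes). Among these, a gene needed 10 normalized reads in 2 or more libraries, and 14254 genes were tested in all. The linear model of limma 3.58.1 (under R 4.3.3) had 1 mean for each type over the 10 libraries (5 residual and 1.93 prior degrees of freedom, prior SD 0.211), two-sided, with Benjamini-Hochberg adjustment within each of 6 comparisons, which share libraries. The fit was tested on simulated data. The worth of 1 read came from the spacing of low values, of which between 33.5% and 66.4% per library (up to 20 reads) lay within 0.01 of a whole read, so no count test was run, total depth is unknown, and limits of 3 reads depend on this spacing and include only counting error.

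Members and gene lists were chosen with earlier results of these data known. Every member is named, with values in every library for members called at least once; from each accompanying list the called gene with the largest difference per comparison and direction is named, except for results of 1 gene that are not reported here. Coordinates are from GENCODE M21 (GRCm38), and all 29 Entrez identifiers matched the RefSeq symbols. Alternatives tried were no filter, quantile normalization, equal library medians, the 4 libraries compared alone, a replicate block, robust moderation, no minimum fold and each library left out.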

Additional observations from a re-analysis of the deposited data

How the results depend on the processing

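Of 46 calls of members 21 held in all 16 settings that keep the call rule: 6 of 14 in C1 against B, 4 of 4 in C2 against C1, 1 of 2 in C3 against C2, 5 of 8 in C3 against C1, 1 of 7 in B against A and 4 of 11 in C1 against A. The members called were 7 in B against A, but 3 under quantile normalization, 4 in the 4 libraries alone and 11 with no minimum fold. In C2 against C1 they were 4, but 7 under quantile normalization and 7 with no minimum fold, in C3 against C2 2 but 5 under quantile normalization, and in C1 against A 11 but 5 in the 4 libraries alone. With 1 library left out at a time the count ran from 5 to 11 in B against A, 7 to 14 in C1 against B, 4 to 9 in C2 against C1, 1 to 3 in C3 against C2, 6 to 15 in C1 against A and 6 to 10 in C3 against C1; a type left with 1 library is assumed to vary like the others. Quantile normalization, run on the centred values, turned Nr1h3 in C1 against B to 1.44, and the cause was not tested. It also moved the share of calls over all genes that were higher to 50.6% in place of 37.4% in C1 against B, 49.2% in place of 59.9% in C2 against C1, 52.7% in place of 41.7% in C3 against C2 and 51.3% in place of 37.7% in C1 against A. Among members, those called higher and lower in C1 against B were then 3 and 8 in place of 2 and 12. Robust moderation and equal library medians changed no call of a member.

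Over 10 pairs of types the correlation across genes of the gaps between replicate 1 and replicate 2 ran from -0.061 to 0.089. No gap was thus shared between types over all genes. Such a correlation cannot show whether libraries with the same replicate number in the titles are paired. With the replicate block the members called were 6 in B against A, without Mvk, 10 in C1 against A, without Tm7sf2 (adjusted p = 0.0667), and 7 in C3 against C1, without Nsdhl (adjusted p = 0.0627), and the block changed no other call of a member. Depth limits the low values: Abcg1 lay under the limit of 3 reads in both C2 libraries.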
